A study of Mus musculus with 3 samples.

Results

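The smooth muscle contractile genes are 10 genes for the filaments, filament-binding proteins and regulators that give visceral muscle its force: Acta2, Actg2, Myh11, Myl9, Mylk, Tpm2, Cnn1, Tagln, Des and Synpo2. They were taken by symbol, and all 10 were listed in each of the 3 libraries, among 46675 genes listed in any of them. Their raw counts of unique molecular identifiers (UMIs, 1 for each captured transcript) were read as counts per 1000000 UMIs of a cell class (CPM) and as the percentage of cells with a UMI. They were described in smooth muscle-like, pericyte-like and fibroblast-like cells, and in epithelial-like and macrophage-like cells as a background.

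The libraries are droplet single-cell 3′ RNA libraries of the mouse hindstomach, the glandular part of the stomach, at embryonic day 18.5. The YAP5SA library came from Shh-Cre;YAP5SA embryos, in which Cre recombinase under Shh control turns on an active form of the transcriptional coactivator YAP. The Yap knockout library came from Shh-Cre;Yap loxP/loxP embryos, which lose Yap where that Cre acts, and the control library from Shh-Cre embryos, so all 3 genotypes carry the Cre. Shh is an epithelial gene in the embryonic gut, and muscle, pericytes and fibroblasts are therefore read here as neighbours of the epithelium in which the allele was recombined. Each genotype has 1 library, and the sources used here give no number of embryos per library. No test between genotypes was possible: every interval below covers counting error only, and no difference was set against the spread between animals.

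In smooth muscle, force comes from myosin pulling on actin filaments. Calcium bound to calmodulin activates myosin light chain kinase, the kinase phosphorylates the regulatory light chain, and the heavy chain then cycles on actin. Tropomyosin, calponin and transgelin lie along the actin, and desmin filaments and dense-body proteins tie the filaments to the cell. Most of these genes are known targets of serum response factor and its partner myocardin, which act through a sequence element named the CArG box.

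After filtering, 8512 YAP5SA, 4892 Yap knockout and 6931 control cells remained, with a median of 5231.5, 4963.5 and 4885 UMIs per cell. Yap1 was at 55.0 CPM in YAP5SA epithelial-like cells, 23.2 CPM in Yap knockout and 47.1 CPM in control. Over all other cells it was at 54.0, 49.2 and 54.0 CPM in the same order, and the Yap knockout epithelium was thus the lowest group. The 3′ counts cannot tell a transgene transcript from the mouse gene. Between 1388 and 2409 cell barcode names occurred in 2 libraries; the names are numbers given within a library, and cells were kept apart by library.

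Smooth muscle-like cells were called from 12 marker genes that are not among the 10, such as the actin nucleator leiomodin (Lmod1), synemin (Synm) and smoothelin (Smtn). The contractile genes were left out of the clustering, so they did not choose the cells they are read in. The class held 449 YAP5SA, 704 Yap knockout and 668 control cells. Its summed marker level was 3006 CPM in YAP5SA, 3534 CPM in Yap knockout and 2797 CPM in control, with none of the 12 markers at 0. Myod1, which sets skeletal muscle fate, was at 0 in all 3, and skeletal Myh3 was at 2.99 CPM in YAP5SA and 2.60 CPM in Yap knockout. Leading genes of a cluster were ranked by fold with 68 contractile genes, the 10 among them, left out of the ranking. The 10 leading genes of both muscle clusters included genes best known from striated muscle. The name thus rests on the markers, of which 10 of 12 were raised in each cluster. In the cluster of most YAP5SA cells the leading genes were Ckm, Myh7, Fbxl22, Tnnt2, Casq1, Synm, Sh3bgr, Tnnt3, Cav3 and Ckb, with 1 of the 12 markers, Synm, among them. The cluster of most Yap knockout and control cells also had Ckm, Tnnt2 and Ckb among its leading genes, and 4 of the markers. Over the whole class Ckm, muscle creatine kinase, was at 884 CPM in YAP5SA, 579 CPM in Yap knockout and 769 CPM in control. The slow myosin gene Myh7 was at 114 CPM in YAP5SA, 32.8 CPM in Yap knockout and 30.0 CPM in control, and the troponin gene Tnnt2 at 250, 178 and 181 CPM in the same order. These genes were picked out after their values were seen, and were thus present in muscle of all 3 libraries with Myh7 highest in YAP5SA. The YAP5SA cells lay mostly in 1 cluster (436 cells), and the Yap knockout (703) and control (655) cells in another. The control cells of the YAP5SA cluster numbered 13, too few for a comparison within it.

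Promoter sequence was at hand for 7 of the 10 genes, as 300 bases from 250 before to 50 after the RefSeq start on GRCm38.p6, read on the gene's strand. The CArG box (10 letters, the same read on either strand) was searched as an exact match and with 1 letter off. Myl9 and Acta2 are shown because they were the genes of the 7 with any match, and capitals mark the boxes. The Myl9 window is chr2:156775214-156775513 (plus strand) and the Acta2 window chr19:34255324-34255623 (minus strand).
Myl9: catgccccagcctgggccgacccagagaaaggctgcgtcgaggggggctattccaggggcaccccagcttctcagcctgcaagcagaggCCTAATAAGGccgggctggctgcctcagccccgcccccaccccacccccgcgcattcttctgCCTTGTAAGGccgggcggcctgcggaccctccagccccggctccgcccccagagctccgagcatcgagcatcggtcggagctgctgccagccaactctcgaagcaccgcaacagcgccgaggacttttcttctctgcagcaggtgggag
Acta2: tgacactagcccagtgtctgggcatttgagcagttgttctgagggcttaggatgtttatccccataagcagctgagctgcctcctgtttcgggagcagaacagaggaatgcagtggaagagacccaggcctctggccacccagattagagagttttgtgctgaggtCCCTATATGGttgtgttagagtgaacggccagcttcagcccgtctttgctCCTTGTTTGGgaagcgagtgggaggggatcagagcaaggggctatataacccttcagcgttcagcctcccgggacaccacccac
The Myl9 window holds 1 exact box, starting 161 bases before the start site, and 1 box with a letter off, and the Acta2 window holds 2 boxes with a letter off. Des, Synpo2, Tpm2, Cnn1 and Mylk had none in this window, and Actg2, Myh11 and Tagln were not searched. Among 32851 promoters of the same length, 1.63% hold an exact box and 21.1% a box that is exact or 1 letter off. The match is a description of letters and shows no binding.

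The 10 genes took up a large part of the RNA of the muscle cells: 12.1% of class UMIs in YAP5SA, 8.29% in Yap knockout and 10.9% in control. In the median cell the share was 11.6% in YAP5SA, 8.01% in Yap knockout and 10.7% in control. The middle of the distribution ran between quartiles of 8.47% and 14.8% in YAP5SA, 5.88% and 10.1% in Yap knockout, and 7.72% and 13.1% in control, so the cells of the 3 libraries overlapped widely. At 1000 UMIs per cell, the median cell of every library held 9 of the 10 genes. Cells of the class with under 2% of their UMIs in the 10 genes numbered 6 in YAP5SA, 21 in Yap knockout and 10 in control. Muscle cells with a UMI of the dividing-cell genes Mki67 or Top2a, which were the deeper cells in each library, had median shares within 1 percentage point of the other muscle cells, at 12.04% against 11.3% in YAP5SA, 7.56% against 8.30% in Yap knockout and 10.5% against 10.9% in control.

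**Figure D1:**
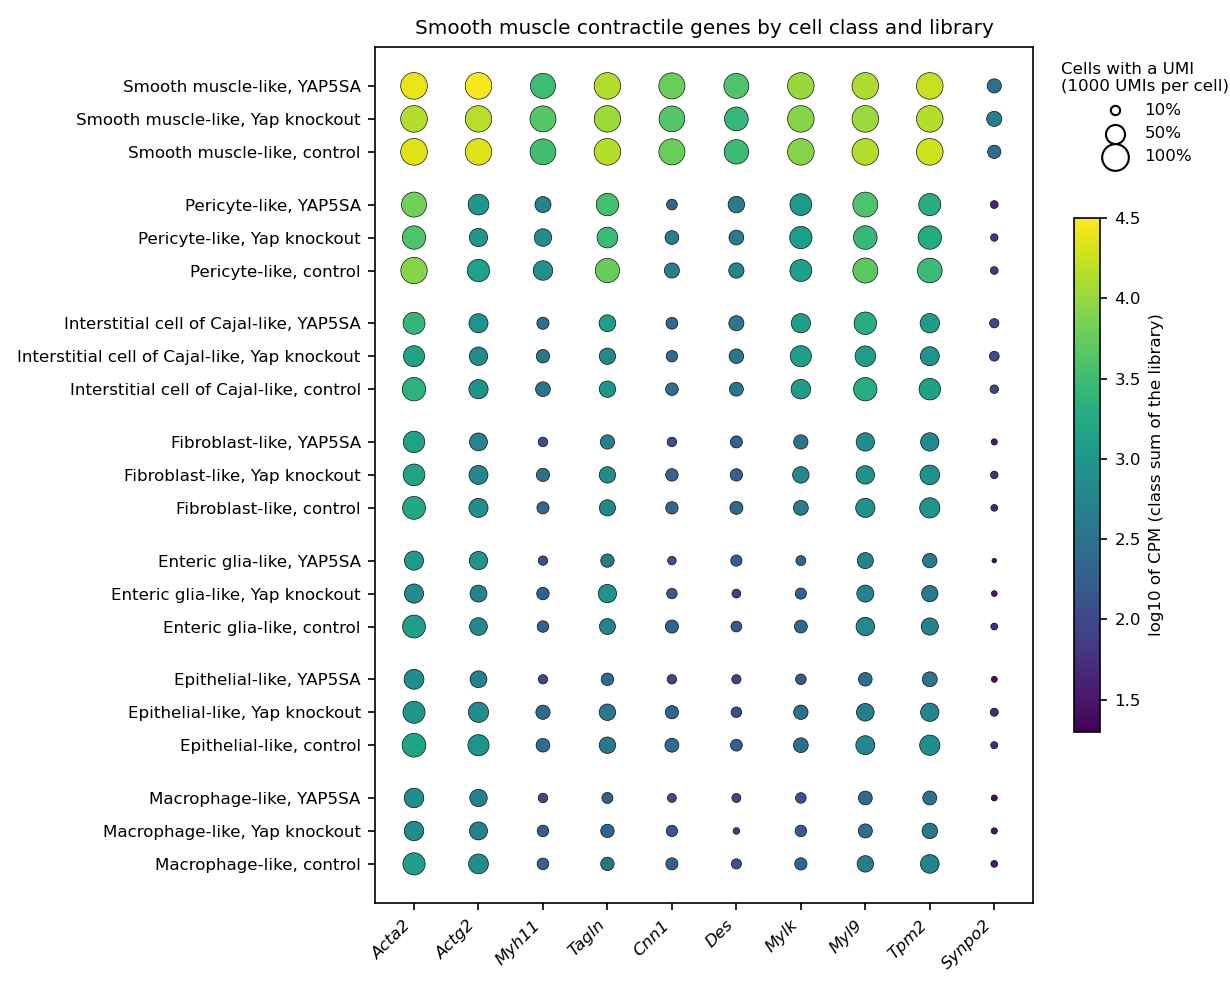
Level and detection of the 10 genes by cell class and library. Colour gives log10 of the CPM of the class sum and circle area the percentage of cells with at least 1 UMI after each cell was thinned to 1000 UMIs; the smooth muscle-like rows stand out in all 10 columns, pericyte-like rows in Acta2, Tagln, Myl9 and Tpm2, and the other classes are paler throughout.

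Acta2, Actg2 and Tpm2 had the highest levels of the 10 genes in muscle of each library on the CPM scale, which needs no length correction here because a 3′ library counts a transcript by its end. Acta2, the smooth muscle alpha-actin of vessel and visceral muscle, was at 24933 CPM in YAP5SA, 13471 CPM in Yap knockout and 22051 CPM in control muscle. Actg2, the gamma-actin of gut smooth muscle, was at 29507 CPM in YAP5SA, 14179 CPM in Yap knockout and 21450 CPM in control. Both were lowest in the Yap knockout library. Acta2 was 1.13-fold higher in YAP5SA than in control (95% counting interval 1.12 to 1.14) and 1.64-fold lower in Yap knockout (1.62 to 1.65). Actg2 was 1.38-fold higher in YAP5SA (1.37 to 1.39) and 1.51-fold lower in Yap knockout (1.501 to 1.524). The coding sequences of actin genes are near-identical, and the sources used here do not say how reads that fit several of them were counted.

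Myosin and its regulation moved in different directions across the genes. Myh11, the smooth muscle myosin heavy chain, was at 3091 CPM in YAP5SA, 4497 CPM in Yap knockout and 3395 CPM in control muscle, which is 1.10-fold lower in YAP5SA (1.08 to 1.12) and 1.32-fold higher in Yap knockout (1.303 to 1.346). Myl9, the regulatory light chain, was at 12771 CPM in YAP5SA, 10576 CPM in Yap knockout and 13434 CPM in control. It was 1.05-fold lower in YAP5SA (1.04 to 1.06) and 1.27-fold lower in Yap knockout (1.26 to 1.28). The heavy chain and its light chain thus lay on opposite sides of the control in the Yap knockout library. Mylk, the kinase that phosphorylates Myl9, was at 10058 CPM in YAP5SA, 8331 CPM in Yap knockout and 8176 CPM in control, or 1.23-fold higher in YAP5SA (1.22 to 1.25) and 1.019-fold higher in Yap knockout (1.01 to 1.03), a direction that TMM scaling turned.

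The actin-binding genes were close to control in YAP5SA and below it in Yap knockout. Tpm2, the beta-tropomyosin that winds along actin, was at 17011 CPM in YAP5SA, 13634 CPM in Yap knockout and 17908 CPM in control. Tagln, the actin cross-linker transgelin, was at 13556 CPM in YAP5SA, 10774 CPM in Yap knockout and 13737 CPM in control. Cnn1, calponin 1, which slows actomyosin, was at 5824 CPM in YAP5SA, 4357 CPM in Yap knockout and 5861 CPM in control. Tpm2 was 1.05-fold lower in YAP5SA. Tagln and Cnn1 were at 0.987 and 0.994 of control there, and which side of control they lay on turned with the scaling and the clustering used. In Yap knockout Tpm2, Tagln and Cnn1 were 1.31-fold, 1.27-fold and 1.35-fold lower.

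Of the genes that anchor the filaments, Des was highest in YAP5SA and Synpo2 highest in Yap knockout. Des, the intermediate filament protein desmin, was at 4080 CPM in YAP5SA, 2670 CPM in Yap knockout and 3044 CPM in control. It was 1.34-fold higher in YAP5SA (1.31 to 1.37) and 1.14-fold lower in Yap knockout (1.12 to 1.16). Synpo2, the dense-body protein synaptopodin 2, was the lowest of the 10 genes, at 301 CPM in YAP5SA, 448 CPM in Yap knockout and 263 CPM in control. It was 1.15-fold higher in YAP5SA (1.07 to 1.23) and 1.71-fold higher in Yap knockout (1.61 to 1.81). Its epithelial-like level was 8.42% of the muscle level in YAP5SA, 10.8% in Yap knockout and 19.8% in control, and was not subtracted in these ratios. At 1000 UMIs per cell 26.5% of YAP5SA, 30.5% of Yap knockout and 22.9% of control muscle cells held a Synpo2 UMI. The other 9 genes were detected at that depth in 78.7% to 99.9% of the muscle cells of each library.

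None of the 10 genes passed a 2-fold difference in muscle. Log2 ratios were taken after adding 5 CPM, over the genes that reached 50 CPM in at least 1 of the libraries compared. Between YAP5SA and control muscle, 0.926% of 3023 genes were at least 2-fold higher and 0.728% at least 2-fold lower. Between Yap knockout and control, the shares were 1.43% and 1.39% of 3298 genes. The median log2 ratio of the 10 genes was 0.08 in YAP5SA, beside -0.01 over all genes measured, and -0.35 in Yap knockout, beside 0.04. At a 1.5-fold limit, added later, none of the 10 passed in YAP5SA, where 2.48% of genes were higher and 3.34% lower. In Yap knockout, Synpo2 was higher, where 10.5% of genes were, and Acta2 and Actg2 were lower, where 5.4% of genes were.

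**Figure D2:**
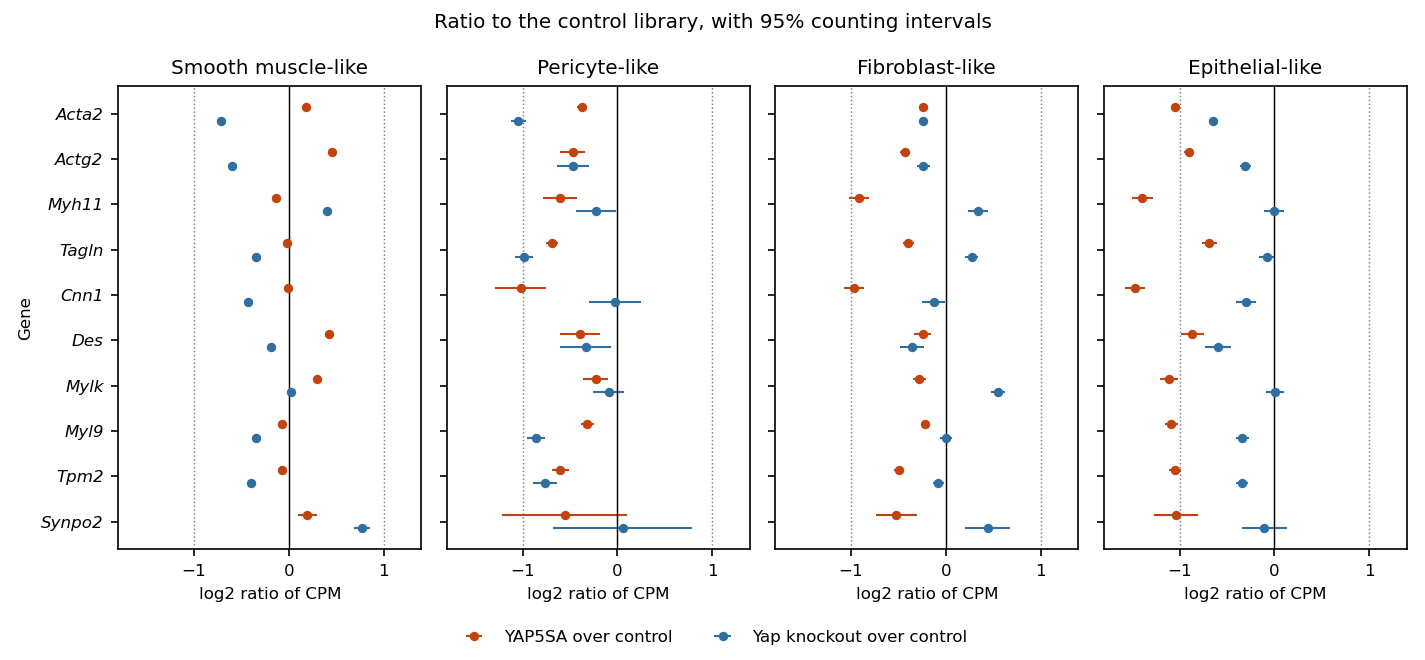
Log2 ratio of CPM of each gene to the control library in 4 cell classes, YAP5SA in red and Yap knockout in blue, with 95% counting intervals (often narrower than the point) and dotted lines at 2-fold. In smooth muscle-like cells all 10 genes lie within 2-fold of control, Acta2 and Actg2 at -0.71 and -0.60 in Yap knockout; in epithelial-like cells the 10 YAP5SA points lie between -1.43 and -0.68 on the scale with 5 CPM added.

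Over all genes, the ratios in Yap knockout muscle went along with the length of the gene on the genome. No correlation was taken among the 10. Over 3157 genes with a RefSeq span, Spearman's rho between span and log2 ratio was 0.45 in Yap knockout muscle and -0.09 over 2893 genes in YAP5SA muscle, as a description across genes that share their libraries. In other Yap knockout classes rho was 0.55 in fibroblast-like, 0.43 in Cajal-like, 0.34 in pericyte-like, 0.33 in epithelial-like and 0.21 in glia-like cells. In macrophage-like cells, read as background, it was -0.19, so the direction differed between classes. The median log2 ratio in Yap knockout muscle was -0.15, -0.11, 0.10 and 0.37 in 4 equal groups of genes by rising span. Myh11 (97.7 kb), Synpo2 (160 kb) and Mylk (257 kb), the genes above control in the knockout, lay in the longest group. Mylk was close to control at 0.03, below the median of that group. Acta2 (15.25 kb), with a log2 ratio of -0.71, lay below the median of its group, and Actg2 (23.3 kb), at -0.60, below the median of the next, while Des (8.29 kb), at -0.19, lay near that of its group. Tagln, Myl9, Cnn1 and Tpm2, of 6.25 to 10.0 kb, lay between -0.43 and -0.34, each below the median of its group. Malat1, an RNA held in the nucleus, was at 1244 CPM in YAP5SA, 3189 CPM in Yap knockout and 1454 CPM in control muscle, and the mitochondrial share was 0.965%, 0.880% and 1.25% in the same order. The summed level of 12 fibroblast markers in the muscle cells was 6663 CPM in YAP5SA, 4050 CPM in Yap knockout and 10027 CPM in control. The part of these in the ratios was not tested.

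**Figure D3:**
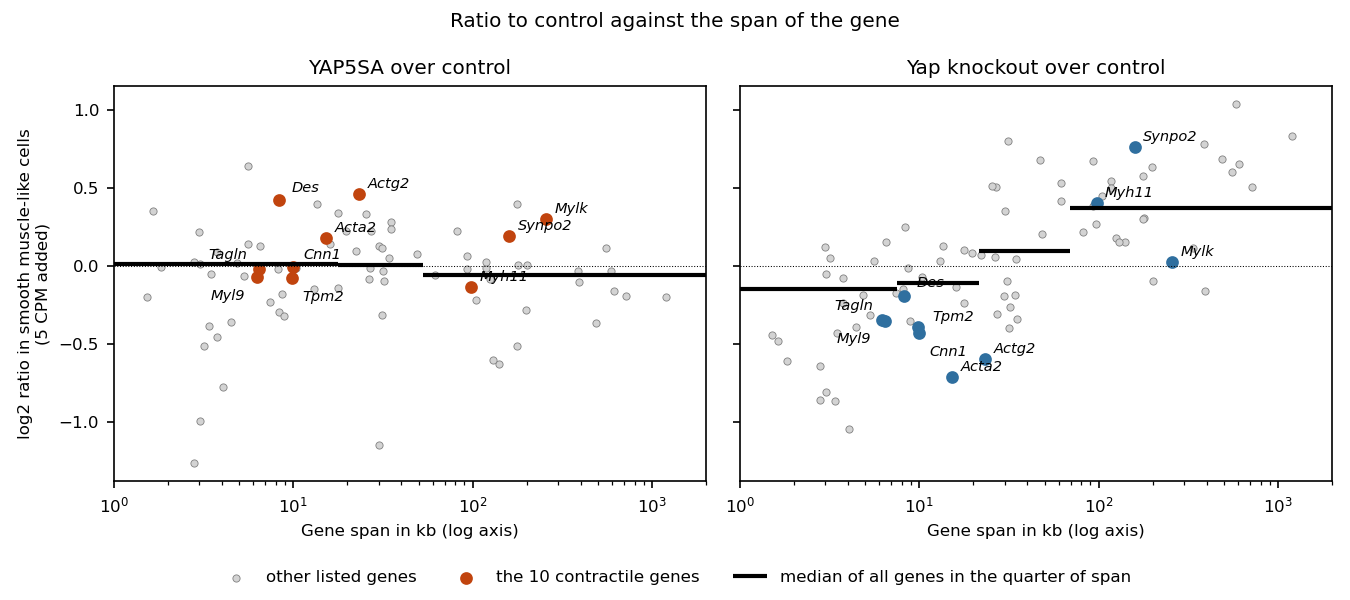
Log2 ratio to control in smooth muscle-like cells against the genomic span of the gene (log axis), YAP5SA left and Yap knockout right. Coloured points are the 10 contractile genes, grey points genes of the other lists, and black bars the median of all genes in each of 4 equal groups of span; the bars run between -0.15 and 0.37 in Yap knockout and between -0.05 and 0.02 in YAP5SA.

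The balance of the 2 actins differed between muscle and pericyte-like cells more than between libraries. Of the UMIs of both actins, Actg2 had 54.2% in YAP5SA muscle (exact 95% binomial interval 54.0% to 54.4%), 51.3% in Yap knockout (51.1% to 51.5%) and 49.3% in control (49.1% to 49.5%). In pericyte-like cells it had 13.6% in YAP5SA (12.8% to 14.4%), 20.1% in Yap knockout (18.4% to 21.9%) and 14.4% in control (13.6% to 15.2%). Muscle was thus close to equal parts of the 2 actins and pericytes were mostly Acta2 in each library. Among single muscle cells with at least 20 actin UMIs, the Actg2 share was 48.8% in the median YAP5SA cell, with a 10th percentile of 26.7% and a 90th of 62.2%. The median was 47.6% in Yap knockout cells (26.5% and 63.3%) and 44.2% in control cells (24.8% and 60.5%), a spread within each library wider than the gap between their medians. Across muscle cells of a library, Acta2 and Actg2 were the pair of the 10 genes with the highest Spearman correlation, at 0.65 in YAP5SA (449 cells), 0.58 in Yap knockout (704) and 0.58 in control (668), where the cells of a library share its depth and preparation.

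**Figure D4:**
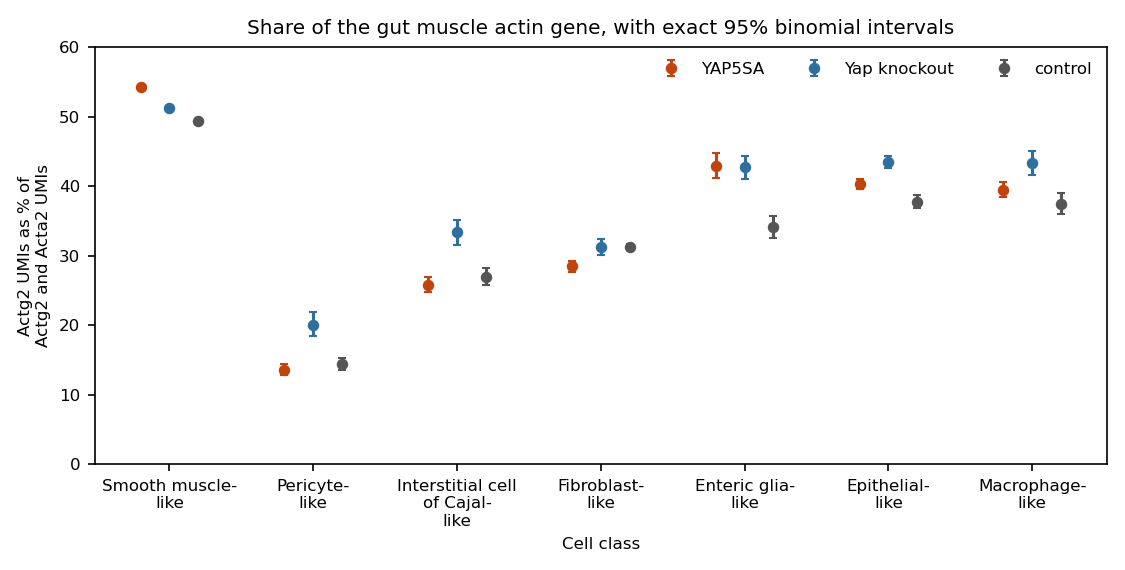
Share of Actg2 among the UMIs of Actg2 and Acta2 by cell class, with exact 95% binomial intervals, for YAP5SA, Yap knockout and control. The share lies between 49.3% and 54.2% in smooth muscle-like cells, between 13.6% and 20.1% in pericyte-like cells, and between 37.5% and 43.5% in epithelial-like and macrophage-like cells.

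Pericytes, the contractile cells around small vessels, held less of the 10 genes than muscle and in another balance. The class had 156 YAP5SA, 72 Yap knockout and 128 control cells in 1 cluster, and its 12 markers, among them Rgs5 and Notch3, summed to 5272 CPM in YAP5SA, 4656 CPM in Yap knockout and 4779 CPM in control. Ndufa4l2 was the largest part of this sum, at 1891, 1252 and 1971 CPM in the same order. Single markers differed in order between libraries. Rgs5 was at 653 CPM in YAP5SA, 738 CPM in Yap knockout and 397 CPM in control, and Gja4 at 90.2, 17.0 and 124 CPM. No separate marker list for vessel muscle was used. The 10 genes had 1.93% of the UMIs of the class in YAP5SA, 1.53% in Yap knockout and 2.66% in control. All 3 values lay between those of muscle and epithelium of the same library. Across pericyte-like cells, Acta2 was in the pair with the highest correlation in each library, with Tagln at 0.73 in YAP5SA (156 cells), with Myl9 at 0.69 in Yap knockout (72) and with Tagln at 0.71 in control (128).

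Acta2 led in pericytes, at 6458 CPM in YAP5SA, 4052 CPM in Yap knockout and 8366 CPM in control. It was 1.295-fold lower in YAP5SA (1.25 to 1.34) and 2.06-fold lower in Yap knockout (1.95 to 2.18). Tagln was at 3578 CPM in YAP5SA, 2915 CPM in Yap knockout and 5768 CPM in control, or 1.61-fold lower in YAP5SA (1.54 to 1.69) and 1.98-fold lower in Yap knockout (1.85 to 2.11). For both genes the control library was the highest and the Yap knockout the lowest. Myl9 was at 4006 CPM in YAP5SA, 2747 CPM in Yap knockout and 4983 CPM in control, and Tpm2 at 1990, 1780 and 3021 CPM in the same order. Actg2 was at 1015 CPM in YAP5SA, 1018 CPM in Yap knockout and 1407 CPM in control.

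The other 5 genes were at or below 1262 CPM in pericytes. Mylk was at 1077 CPM in YAP5SA, 1186 CPM in Yap knockout and 1262 CPM in control, and Myh11 at 520, 677 and 791 CPM in the same order. Cnn1 was at 215 CPM in YAP5SA, 431 CPM in Yap knockout and 437 CPM in control, which is 2.03-fold lower in YAP5SA (1.69 to 2.44). Des was between 401 and 527 CPM and Synpo2 between 42.9 and 65.8 CPM over the 3 libraries. In these class sums all 5 were lowest in YAP5SA, as they also were in epithelial-like cells. The counting interval of Synpo2 between YAP5SA and control includes 1. Pericyte levels stood above the macrophage-like background for all 10 genes in each library, with ratios of 1.64-fold for Synpo2 to 19.2-fold for Tagln in YAP5SA, 2.02-fold for Actg2 to 13.7-fold for Tagln in Yap knockout, and 1.91-fold for Actg2 to 19.1-fold for Tagln in control. Against epithelial-like cells all 10 intervals were above 1 in YAP5SA and 9 in each of the others, where Synpo2 was at 1.36-fold in Yap knockout (0.884 to 2.01) and 1.21-fold in control (0.854 to 1.67).

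On the log2 scale with 5 CPM added, the YAP5SA ratios of the 10 genes in pericytes lay between -1.003 and -0.23 with a median of -0.49, beside a median of 0.04 over 3748 genes. In Yap knockout they lay between -1.04 and 0.06 with a median of -0.40, beside 0.09 over 4016 genes. Cnn1 passed 2-fold in YAP5SA, where 0.8% of genes were at least 2-fold lower and 2.21% at least 2-fold higher. Acta2 passed it in Yap knockout, where 3.59% of genes were at least 2-fold lower and 7.07% higher. Each was just past the limit, and with predicted doublets kept neither passed. With the epithelial-like level of each library subtracted, 2 of the 10 genes turned to above control in YAP5SA, Actg2 (0.06) and Synpo2 (0.52). In Yap knockout 1 turned, Cnn1 (0.32). Without subtraction, 4 genes were at least 1.5-fold lower in YAP5SA, where 5.28% of genes were lower and 8.56% higher. In Yap knockout 4 were, where 13.1% of genes were lower and 20.1% higher. In macrophage-like cells, read as background, the median log2 ratio was -0.71 in YAP5SA and -0.54 in Yap knockout over 9 of the genes, and the summed level of fibroblast markers in pericyte-like cells was 6270 CPM in YAP5SA, 4245 CPM in Yap knockout and 9773 CPM in control. The part of these in the pericyte ratios was not tested.

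Fibroblast-like cells held far less of the 10 genes than muscle, and 6 of them stood above both backgrounds in each library: Acta2, Tpm2, Myl9, Mylk, Tagln and Des. The median ratio over the 10 genes was 1.82 to the epithelial-like and 1.99 to the macrophage-like level in YAP5SA, 1.499 and 2.21 in Yap knockout, and 1.19 and 1.52 in control. The class had 1397 YAP5SA, 504 Yap knockout and 3187 control cells, and its 12 markers, among them Col1a1 and Dcn, summed to 31020 CPM in YAP5SA, 22349 CPM in Yap knockout and 34209 CPM in control. YAP5SA cells lay mostly in 1 cluster (1198 cells) that held 16 control cells, while the Yap knockout and control cells lay in the other 2. A further 1812 YAP5SA cells and 10 control cells formed a stromal cluster that the markers left unnamed.

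Acta2 in fibroblasts was at 1377 CPM in YAP5SA, 1386 CPM in Yap knockout and 1632 CPM in control, which is 1.94-fold, 1.47-fold and 1.11-fold the epithelial-like level of the same library and 1.84-fold, 2.10-fold and 1.33-fold the macrophage-like level. Actg2 was at 547 CPM in YAP5SA, 628 CPM in Yap knockout and 740 CPM in control, or 1.14-fold, 0.868-fold and 0.828-fold the epithelial-like level. To the macrophage-like level its ratio was 1.12, 1.25 and 1.01, with an interval of 0.954 to 1.06 in control. At 1000 UMIs per cell, 43.7% of YAP5SA, 49.4% of Yap knockout and 50.3% of control fibroblasts held an Actg2 UMI, beside 41.3%, 44.4% and 54.3% of macrophage-like cells, whose median depth was 5491, 7785 and 4932.5 UMIs, against 4425, 4701.5 and 4779 UMIs in fibroblasts. Actg2 in fibroblasts was thus within 1.25-fold of the macrophage level in each library.

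Myl9, Mylk, Tagln and Des had the highest ratios to the macrophage-like level in fibroblasts of every library. Myl9 was at 726 CPM in YAP5SA, 846 CPM in Yap knockout and 844 CPM in control, against 248, 288 and 428 CPM in macrophage-like cells. Mylk was at 342 CPM in YAP5SA, 607 CPM in Yap knockout and 414 CPM in control, against 133, 164 and 220 CPM. Tagln was at 437 CPM in YAP5SA, 693 CPM in Yap knockout and 574 CPM in control, against 186, 214 and 302 CPM. Des was at 205 CPM in YAP5SA, 189 CPM in Yap knockout and 243 CPM in control, against 93.7, 67.3 and 135 CPM. These fibroblast levels were 1.80-fold to 3.69-fold the macrophage level of their library.

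Tpm2 was at 644 CPM in YAP5SA, 860 CPM in Yap knockout and 908 CPM in control fibroblasts, or 2.14-fold, 2.32-fold and 1.67-fold the macrophage-like level. Myh11 was at 118, 281 and 222 CPM, Cnn1 at 117, 211 and 230 CPM, and Synpo2 at 31.1, 60.8 and 44.6 CPM, each in the same order, and these were not above both backgrounds in every library. No gene passed 2-fold in fibroblasts, where 0.294% of 3402 genes were at least 2-fold lower in YAP5SA and 1.15% higher, and 1.21% of 3878 genes were at least 2-fold lower in Yap knockout and 3.3% higher. The 9 genes with at least 50 CPM were all below control in YAP5SA, with a median log2 ratio of -0.39 beside 0.02 over all genes. In Yap knockout, 5 of 10 were above and 5 below control, with a median of -0.04 beside 0.10. At 1.5-fold, 2 genes were lower in YAP5SA, where 1.82% of genes were lower and 2.47% higher, and none passed in Yap knockout, where 7.61% were lower and 18% higher. When the epithelial-like level of each library was subtracted, nothing was left of Actg2, Myh11, Cnn1 and Synpo2 in control fibroblasts, so no ratio is given for these. The 6 genes left in both libraries turned to the other side of control, with Tagln at 191 CPM in YAP5SA and 178 CPM in control and Acta2 at 667 CPM in YAP5SA and 160 CPM in control. With predicted doublets kept, Acta2 (0.09), Des (0.02) and Mylk (0.19) also lay above control in YAP5SA fibroblasts on the log2 scale.

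**Figure D5:**
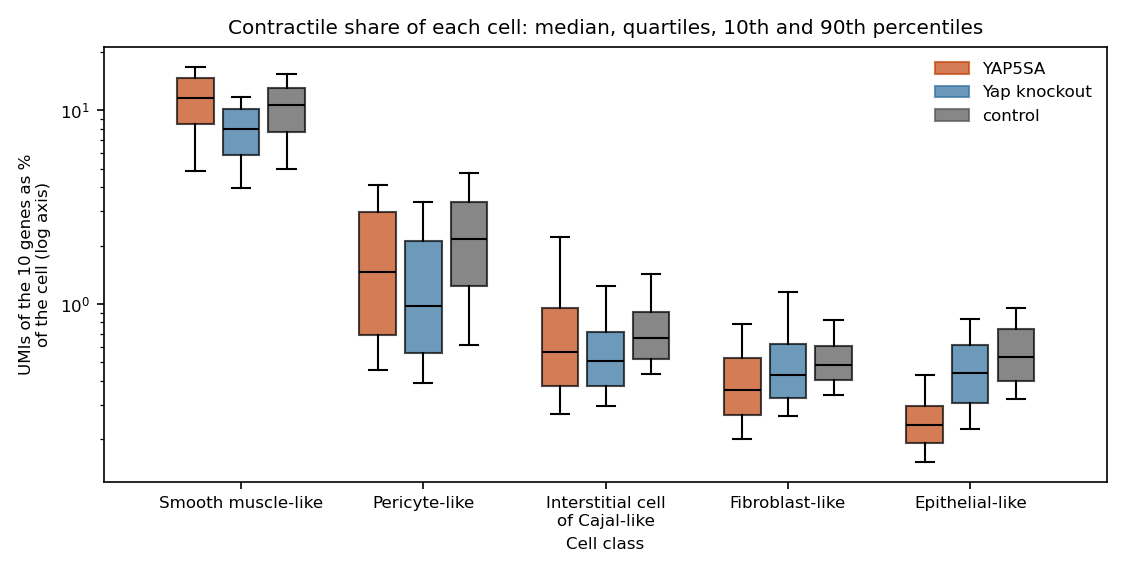
UMIs of the 10 genes as a percentage of each cell's UMIs (log axis) in 5 cell classes, for YAP5SA, Yap knockout and control; boxes show quartiles, the line the median, whiskers the 10th and 90th percentiles. Muscle medians are 11.6%, 8.01% and 10.7%, pericyte medians 1.46%, 0.975% and 2.16%, and the epithelial medians 0.235%, 0.439% and 0.529%.

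Epithelial-like cells, which lack the contractile apparatus of smooth muscle, still held 0.250% of their UMIs in the 10 genes in YAP5SA, 0.400% in Yap knockout and 0.510% in control. Macrophage-like cells held 0.242% in YAP5SA, 0.262% in Yap knockout and 0.401% in control. In both classes the control library was the highest. Acta2 was at 710 CPM in YAP5SA, 941 CPM in Yap knockout and 1472 CPM in control epithelium, and at 749, 659 and 1227 CPM in macrophages. The Acta2 level of muscle was 24933, 13471 and 22051 CPM, so the background was a small part of it in each library.

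In epithelium 6 of the 10 genes were at least 2-fold lower in YAP5SA than in control, where 8.31% of 3476 genes were: Acta2, Myh11, Cnn1, Mylk, Myl9 and Tpm2. The 10 log2 ratios lay between -1.43 and -0.68, with a median of -1.04 beside 0.21 over all genes. None was higher, where 12.9% of genes were. At 1.5-fold all 10 were lower in YAP5SA, where 16.6% of genes were lower and 29.1% higher. In Yap knockout none passed, where 3.56% of 3147 genes were lower and 2.16% higher, and the median was -0.30. At 1.5-fold Acta2 was lower in Yap knockout, where 7.82% of genes were lower and 7.79% higher. The genes went the same way in YAP5SA macrophages, with a median of -0.71 over 9 genes and none past 2-fold, where 1.25% of 3370 genes were lower and 1.78% higher. Smooth muscle-like cells made 7.16% of the UMIs of the kept cells in YAP5SA, 22.1% in Yap knockout and 15.7% in control, and epithelial-like cells had a median of 6275, 2656.5 and 2500.5 UMIs. Most YAP5SA epithelial-like cells (1538) lay in a cluster with 2 control cells. A cluster with a median of 1698.5 UMIs held 316 control and 16 YAP5SA cells, and the 10 genes had 0.770% of UMIs in its control cells. In the largest control cluster they had 0.456% in 519 control cells and 0.283% in 43 YAP5SA cells. The part of depth, muscle RNA and cluster makeup in the epithelial values was not tested.

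Genes that work with the 10 were followed in muscle, where 48.7% of all genes measured were above control in YAP5SA and 53.9% in Yap knockout. Of the filament partners, all 20 were measured, 12 above and 8 below control in YAP5SA and 8 above and 12 below in Yap knockout, with none past 2-fold. The highest ratios in YAP5SA were 1.58 for Actc1 (cardiac alpha-actin), 1.32 for the caldesmon gene Cald1 and 1.27 for Tpm4, and the lowest were 0.47 for Acta1 (skeletal alpha-actin), 0.80 for Tgfb1i1 and 0.82 for Svil. In Yap knockout the highest were 1.56 for Svil, 1.49 for Cald1 and 1.37 for the vinculin gene Vcl, and the lowest 0.54 for Acta1, 0.64 for the cytoplasmic actin gene Actg1 and 0.78 for Tgfb1i1. Acta1 was thus the lowest of the list in both libraries, at 38.7 CPM in YAP5SA, 44.7 CPM in Yap knockout and 82.0 CPM in control, with a log2 ratio of -0.99 and -0.81 once 5 CPM were added. It met the limit of 50 CPM only through its control level, which favours a lower ratio.

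Of the genes that control myosin phosphorylation, 13 of 15 were measured, 5 above and 8 below control in YAP5SA and 8 above and 5 below in Yap knockout. Ppp1r14a, the inhibitor of myosin phosphatase CPI-17, was the lowest in both, at 0.57 of control in YAP5SA and 0.47 in Yap knockout, with 116 CPM in YAP5SA, 95.3 CPM in Yap knockout and 202 CPM in control. It passed 2-fold in Yap knockout, where 1.39% of all genes were at least 2-fold lower. The kinases Rock2, at 1.65 of control, and Prkg1, at 1.79, were among the highest in Yap knockout. Rock2 and Prkg1 span 93.3 and 1201 kb, in the longest group of genes above, whose median log2 ratio was 0.37. Of the calcium and excitability genes, 9 of 14 were measured in YAP5SA, 2 above and 7 below control with none past 2-fold. In Yap knockout 11 were measured and all 11 were above control, where 53.9% of all genes were, with a median log2 ratio of 0.51. Past 2-fold higher, where 1.43% of all genes were, was 1 of them, the ryanodine receptor Ryr3 at 246 CPM in Yap knockout and 117 CPM in control. Ryr3, Cacnb2 and Cacna1c span 586.1, 385.0 and 610.1 kb, in the longest group of genes above. The channel subunits Cacnb2, at 1.75, and Cacna1c, at 1.59, followed, while the pump Atp2a2 was at 1.16 and the calcium release channel Itpr1 at 1.09.

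Of the receptors, 3 of 9 were measured, the muscarinic receptors Chrm2 and Chrm3 and the endothelin receptor Ednrb. They were at 0.64, 0.77 and 0.40 of control in YAP5SA and at 1.11, 1.63 and 0.86 in Yap knockout. In YAP5SA Ednrb passed 2-fold with 20.5 CPM, against 51.4 CPM in control, where 0.728% of all genes were at least 2-fold lower. It met the limit of 50 CPM there only through its control level, which favours a lower ratio. Of the transcription factors, 8 of 15 were measured in YAP5SA, 5 above and 3 below control, and 7 in Yap knockout, 4 above and 3 below, with none past 2-fold. Myocd, the gene of myocardin, was at 0.90 of control in YAP5SA and 1.21 in Yap knockout, and Barx1, a regulator of stomach mesenchyme, at 0.97 and 0.74. Of 10 genes of dividing cells, 7 were measured in YAP5SA and 8 in Yap knockout, with none past 2-fold and Top2a at 0.79 and 1.81 of control. Of 12 immediate early and heat shock genes, which respond to dissociation, 11 were measured, 2 above and 9 below control in YAP5SA and 3 above and 8 below in Yap knockout. In YAP5SA, 2 were above and 9 below in fibroblast-like cells, 2 above and 8 below in epithelial-like cells, and 6 above and 4 below in pericyte-like cells. The heat shock gene Hspa1a passed 2-fold in YAP5SA muscle, at 77.6 CPM against 194 CPM in control (2.49-fold lower, 2.21 to 2.82), where 0.728% of all genes were at least 2-fold lower.

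Across 41 sums of a class in a library, each with at least 50 cells, the genes outside the list whose levels were most like the mean of the 10 were Fbxl22, Dmpk, Slc2a4, Jph2, Tpm1, Lmod1, Sh3bgr, Hspb6, Sntg2 and Flna, out of 8677 genes. Pearson's r on log2(CPM + 5) was 0.98 for Fbxl22 and 0.93 for Flna, as a description over sums that share libraries. Fbxl22 was at 775 CPM in YAP5SA, 658 CPM in Yap knockout and 933 CPM in control muscle, and reached 197 CPM outside muscle, in control pericytes. Tpm1, the alpha-tropomyosin, was at 7758 CPM in YAP5SA, 5369 CPM in Yap knockout and 6631 CPM in control muscle. Among the 10 genes themselves, Tpm2 was the most like the mean, at 0.99, and Synpo2 the least, at 0.93.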

How the data were processed

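The authors deposited raw UMI counts per gene and cell for 3 libraries. They aligned reads with STAR to GRCm39, per the submitters' processing notes, and counted with PISA 1.0, per the file headers; the sources used here do not say how strand and reads that fit several genes were handled. Annotated antisense genes overlap Tagln, Des and Mylk. Cells with at least 500 genes and at most 20% mitochondrial UMIs were kept. Scrublet's own threshold called 0 doublets in each library, so the 6% of cells with the highest scores were removed (517 YAP5SA, 309 Yap knockout, 441 control). Cells were clustered with scanpy 1.11.5 (3000 variable genes, 68 contractile genes left out, 40 components, 15 neighbours, Leiden resolution 1.0) and named from marker lists. Class sums were scaled to CPM, and ratios carry exact conditional Poisson 95% intervals, shares exact Clopper-Pearson intervals, all for counting error only. The interval and ratio code was tested on simulated data. For detection, cells were thinned to 1000 UMIs. The 10 genes and all lists were chosen with earlier results of these data known. All 10 genes are named, and from each further list up to 3 genes with the highest and 3 with the lowest log2 ratio in muscle. Spans and promoters came from RefSeq GRCm38.p6, used for gene properties only. edgeR 4.0.16 gave TMM factors for an alternative.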

Additional observations from a re-analysis of the deposited data

How the results depend on the processing

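The counts of genes past 2-fold were recomputed under up to 15 other settings for each of 8 class and genotype comparisons. Of 105 recomputed counts 81 stayed within 1.5 times the reported one. In smooth muscle-like cells the count stayed at 0 under each of them except in Yap knockout at a 1.5-fold limit, added after seeing the data, where it was 3. In pericyte-like cells the YAP5SA count of 1 became 0 with predicted doublets kept, with the mean over cells, and with the epithelial-like level subtracted, and 4 at 1.5-fold. The Yap knockout count of 1 became 0 with doublets kept, 2 with each library clustered alone, with contractile genes kept among the variable genes, with the 10 genes left out of the total and with the epithelial-like level subtracted, 3 with TMM scaling and 4 at 1.5-fold. In fibroblast-like cells the YAP5SA count of 0 became 1 at Leiden resolution 2.0, with contractile genes kept and with the unnamed stromal cluster counted in (added after seeing the data), 2 with each library clustered alone and at 1.5-fold, and 5 with the epithelial-like level subtracted, which also made the Yap knockout count 4. After subtraction the genes counted were all above control. They include Actg2, Myh11, Cnn1 and Synpo2 in YAP5SA, and Myh11 and Synpo2 in Yap knockout. Nothing of these was left in control fibroblasts, so their calls rest on the 5 CPM added. In epithelial-like cells the YAP5SA count of 6 became 2 with doublets kept and with TMM scaling, 3 at most 10% mitochondrial UMIs and 10 at 1.5-fold, and the Yap knockout count of 0 became 1 at 1.5-fold. TMM scaling shifted every log2 ratio of Yap knockout over control by -0.11 in muscle, -0.15 in pericytes and -0.32 in fibroblasts, and of YAP5SA over control by 0.15 in epithelium; in Yap knockout it turned Mylk to -0.08 in muscle and -0.02 in epithelium, Tagln to -0.04 and Myl9 to -0.31 in fibroblasts, and Synpo2 to -0.07 in pericytes. The cause of these moves was not tested. No paired analysis was possible because each genotype has 1 library. With 72 to 156 cells, pericyte values of Synpo2 rest on 27 to 44 UMIs per library.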

Other observations

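Enteric glia-like cells, the support cells of the gut nerve net, held Tagln above the background in the Yap knockout library. Tagln was at 381 CPM in YAP5SA, 818 CPM in Yap knockout and 518 CPM in control glia-like cells (310, 511 and 366 cells), which is 2.05-fold, 3.83-fold and 1.71-fold the macrophage-like level of the same library. Tagln was 1.58-fold higher in Yap knockout than in control glia (95% counting interval 1.47 to 1.70). Acta2, at 680 CPM in Yap knockout and 1168 CPM in control, was 1.72-fold lower (1.62 to 1.82), but it was at the background level. It was 1.03-fold the macrophage-like level in Yap knockout (0.969 to 1.10) and 0.952-fold in control (0.900 to 1.01). The macrophage-like level itself was 659 CPM in Yap knockout and 1227 CPM in control. At 1000 UMIs per cell, 23.2% of YAP5SA, 46.2% of Yap knockout and 34.4% of control glia-like cells held a Tagln UMI, beside 15.2%, 23.5% and 23.6% of macrophage-like cells.

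Interstitial cell of Cajal-like cells, the pacemaker cells of gut muscle, held 0.997% of their UMIs in the 10 genes in YAP5SA, 0.705% in Yap knockout and 0.935% in control. In the median cell the share was 0.561% in YAP5SA, 0.503% in Yap knockout and 0.663% in control. The 90th percentile was 2.20%, 1.23% and 1.42% in the same order. The YAP5SA class sum thus lay above control while its median cell lay below. In the class sums Acta2 was 1.15-fold higher in YAP5SA than in control (1.10 to 1.20) and 1.63-fold lower in Yap knockout (1.54 to 1.72). Tagln was 1.42-fold higher in YAP5SA (1.33 to 1.52) and 1.397-fold lower in Yap knockout (1.28 to 1.52). The macrophage-like level of Acta2 was 749 CPM in YAP5SA, 659 CPM in Yap knockout and 1227 CPM in control. That of Tagln was 186, 214 and 302 CPM in the same order. Acta2 in Cajal-like cells was 3.48-fold, 2.12-fold and 1.85-fold its macrophage-like level, and Tagln 6.73-fold, 2.95-fold and 2.91-fold. The part of the background in the ratios to control was not tested.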
